A study of Bos taurus with 5 samples.

Results

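The comparison described here sets blood leukocytes of 75C, a crossbred cattle population with 75 percent Holstein and 25 percent Iranian native ancestry, against those of N, a purebred population. The members are the 2 libraries labelled 75C and N out of the 5 of the study, read from the rows of the deposited table that name both, and the 14116 assembled loci, of 31898 in all, whose mean over these 2 libraries was at least 1 FPKM. FPKM counts fragments relative to transcript length and to all mapped fragments of a library, so it is a level per length. A locus is a group of transcripts joined by the authors' assembly, and its level here is the sum over its transcripts. The remaining libraries were H, the other purebred population, and the crosses 50CSN (native sire, Holstein dam) and 50CSH (Holstein sire, native dam), each with 50 percent of either breed. What the letters N and H stand for is not spelled out in the labels. The comparison was set up with N read as the native breed, which gives 25 percent of the ancestry of 75C. The labels give neither age nor sex, and do not say how many animals went into a library.

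Blood leukocytes are a mixture of neutrophils, lymphocytes, monocytes and eosinophils, and a bulk library averages over them. Holstein is a dairy breed kept for milk yield, and its crosses with local cattle are used where heat and parasites limit the purebred. Repeated crossing to one breed raises its share of the genome, and transcript levels in blood are known to vary with genotype, with the mix of cells and with the animal's surroundings. In bulk samples, fewer cells of a type and less RNA per cell cannot be told apart. Each population has 1 library, so no difference below has a replicate check and none carries a test of its own. The files identify genes by Ensembl transcript ID or by position only and do not pair them with names, so neither leukocyte markers nor the function of a locus could be read. Loci are therefore given by chromosome, start and end from the deposited spans, counted from 1, and the sources used here name no genome build.

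Most loci stood at nearly the same level in both libraries. The median difference of 75C from N was -0.00016 on the log2(FPKM + 1) scale, and 9559 loci, 67.7 percent, lay within 0.32 of each other on that scale, which is called level below. The middle 50 percent of loci fell between -0.22 and 0.20, and 1 percent lay below -1.68 and 1 percent above 1.43. At least 2-fold higher in 75C were 297 loci, 2.10 percent of those kept, and 414 loci, 2.93 percent, were at least 2-fold lower. A 4-fold distance was reached by 67 loci upward, 0.475 percent, and by 96 downward, 0.680 percent. The summed FPKM was 735252 in N and 843353 in 75C. The sources used here name no read totals. At 2601 weakly covered loci with a single transcript the commonest ratio of 75C to N was 1.28, found at 170 of them. If those loci held equal fragment counts in both libraries, the depth of 75C would be roughly 0.784 of that of N. That condition was not checked.

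**Figure D1:**
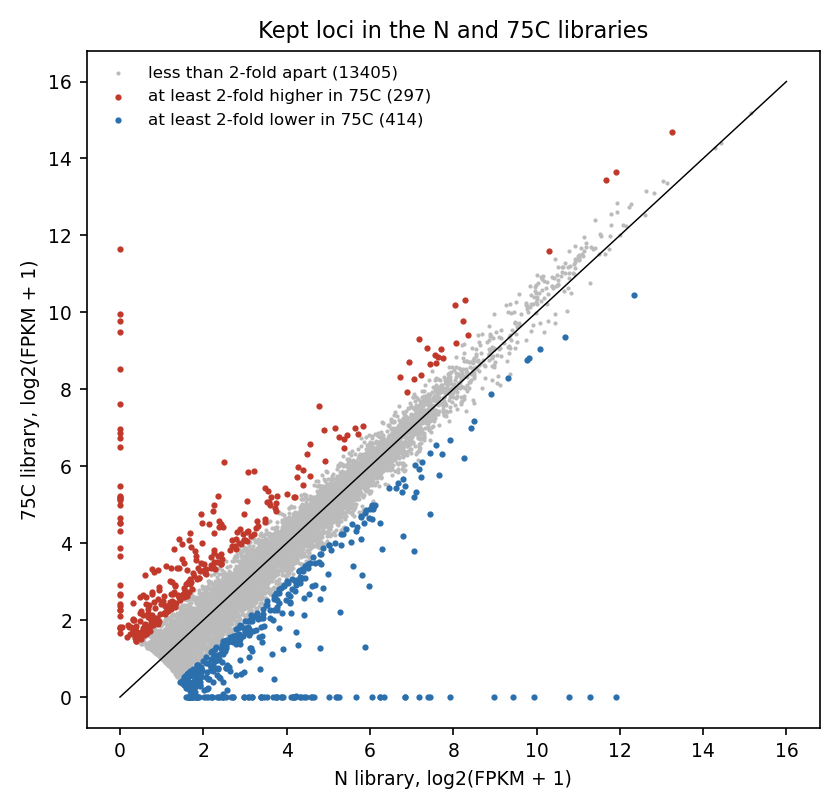
Each point is 1 of the 14116 kept loci, with its level in the N library on the x axis and in the 75C library on the y axis, both as log2(FPKM + 1). The grey cloud follows the line of equal levels, the 297 red points are at least 2-fold higher in 75C and the 414 blue points at least 2-fold lower, and the points along the axes are the 35 loci listed at 0 in N and the 88 listed at 0 in 75C.

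Of the 711 loci apart, which make 5.04 percent of those kept, 123 had a deposited 0 in N or in 75C. These were 35 in N and 88 in 75C, with 120 of the 123 from single-transcript loci. A deposited 0 can be a failed estimate, so no fold is given against it. Without them 262 higher and 326 lower loci remained. The share apart depended on the kind of locus. It was 3.35 percent among 11745 loci with an Ensembl ID, 11.7 percent among 2171 loci without one that spanned at least 300 nt, and 32.0 percent among 200 shorter loci without one. Of 3922 loci with a single transcript 11.2 percent were apart, against 2.79 percent of 2512 loci with 2 transcripts and 2.27 percent of 441 with at least 10. On unplaced sequence it was 13.4 percent of 915 loci. By level, 8.07 percent of loci were apart in the lowest of 5 equal groups, 2.41 percent in the fourth and 3.97 percent in the highest.

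Against the other libraries, 75C stood closer to each than to N. By the same rule, each pair keeping its own loci, 507 loci were at least 2-fold apart between 75C and H, 3.65 percent, and 508 between 50CSN and 75C, 3.70 percent. Between 50CSH and 75C there were 517, 3.77 percent. From N, the counts were 525 for H, 3.71 percent, 883 for 50CSN, 6.32 percent, and 873 for 50CSH, 6.26 percent. These pairs share libraries, so the counts are not independent of each other.

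The loci highest in 75C, among those with an Ensembl ID and above 0 in both libraries, lay on several chromosomes. At chrX:60276583-60303743, the single-transcript locus of ENSBTAT00000017538 had 4.12 FPKM for N, 5.29 in 50CSN, 14.6 in 50CSH, 22.5 in H and 36.6 FPKM in 75C, a log2 difference of 2.88 between 75C and N. H and 50CSH stood between the extremes, while 50CSN stayed near N. The neighbouring locus at chrX:60267755-60275432 was level in its sum, at 9.36 FPKM in N and 8.79 FPKM in 75C. At chr16:865614-910589, the locus of ENSBTAT00000010692, with 10 transcripts, was at 2.83 FPKM in N, 6.11 in 50CSH, 11.8 in H, 15.0 in 50CSN and 26.2 FPKM in 75C. H and 50CSN lay between the extremes there, and 50CSH was the closest to N. A locus at chr5:117480208-117486671 stood at 56.9 FPKM in 75C and 51.1 FPKM in H, against 7.42 in N, 10.2 in 50CSH and 18.5 FPKM in 50CSN. Here 75C and H were close and the 50 percent crosses were nearer N.

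The locus at chr29:42675584-42686556 was at 8.35 FPKM in N, 12.9 in 50CSN, 26.8 in H, 35.2 in 50CSH and 58.3 FPKM in 75C. Another at chr10:23501758-23502470 went from 3.75 FPKM in N to 30.9 in 75C, with the other libraries between 13.7 and 24.5 FPKM. At this locus N alone was low. At chr18:46718166-46737669, the order was different, with H at 37.2 FPKM, 75C at 16.2 and at most 2.22 FPKM in the remaining libraries. A further locus at chr18:44398883-44400892 was at 8.59 FPKM in 75C and below 1 FPKM in each of the other libraries. Of the 12 highest loci 10 were highest in 75C of all 5 libraries, 10 had H nearer to 75C than to N, and 4 lay on chromosome 5. Over all 297 higher loci 75C was highest at 72.7 percent, H was nearer to 75C at only 48.8 percent, and 40 lay on chromosome 5. The 12 were picked by their distance between 75C and N and do not stand for the 297.

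**Figure D2:**
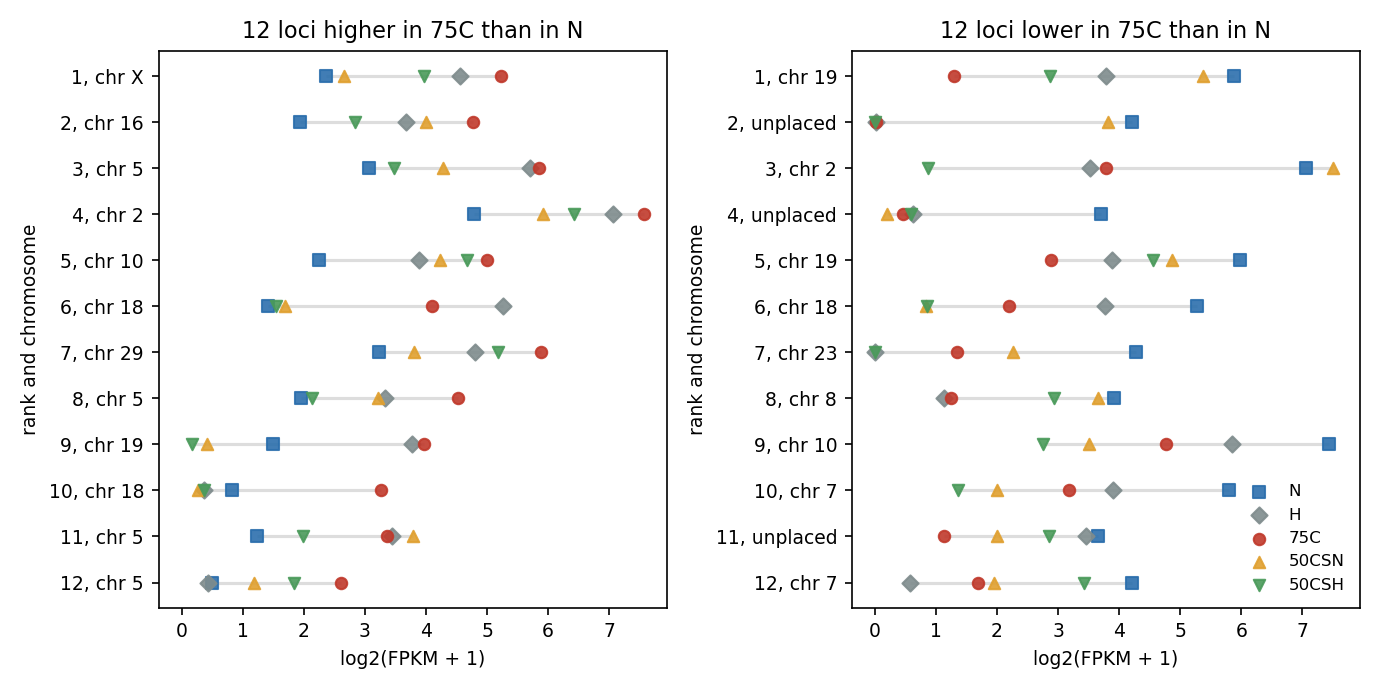
Levels as log2(FPKM + 1) on the x axis of the 12 highest and the 12 lowest loci with an Ensembl ID, in rows ordered by the difference of 75C from N, with 1 symbol for each of the 5 libraries and a grey line from the lowest to the highest. Among the higher loci, 75C is the highest of 5 libraries in 10 of 12 rows. Among the lower loci, 75C is the lowest in 3 of 12 rows, since other libraries are at least as low in the rest.

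Among lower loci that carry an Ensembl ID and have no deposited 0 in N or 75C, the largest difference was at chr19:14238538-14343531, at the locus of ENSBTAT00000040802. It was at 58.2 FPKM in N, 40.3 in 50CSN, 12.8 in H, 6.30 in 50CSH and 1.47 FPKM in 75C, a log2 difference of -4.59. Less than 1 Mb before it, from 13740624 to 13835420, a second locus on chromosome 19 was at 62.2 FPKM in N, 28.2 in 50CSN, 22.4 in 50CSH, 13.7 in H and 6.37 FPKM in 75C. Both had N and 50CSN highest and 75C lowest. The window of this chromosome between 13 and 14 Mb held 17 kept loci, of which 4 were at least 2-fold lower and none was higher. The most abundant of the 4, from 13930010 to 13937027, was at 137 FPKM in N, 130 in 50CSN, 78.9 in 50CSH, 69.6 in H and 39.3 FPKM in 75C.

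A pair of other loci kept 75C in the middle. At chr18:52856391-52863158, the locus of ENSBTAT00000010762 had 37.7 FPKM for N and 12.6 for H, and stood at 3.60 FPKM in 75C and at 0.792 and 0.80 FPKM in 50CSN and 50CSH. At chr7:49142307-49146095, N had 54.8 FPKM, H 13.99 and 75C 8.06, and 50CSH, the lowest, had 1.58 FPKM. In both, N was highest, then H, then 75C, then the 50 percent crosses. That order, which does not follow the Holstein share, held at 48 of the 414 lower loci, 11.6 percent, and at 1147 of the 7060 kept loci with 75C below N, 16.2 percent.

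N was the extreme library more often than 75C at lower loci. Of the 414 lower loci N was the highest of the 5 libraries at 338, 81.6 percent, while 75C was the lowest at 136, 32.9 percent. Of the 297 higher loci 75C was the highest of the 5 at 216, 72.7 percent, and N the lowest at 171, 57.6 percent. Over all kept loci N was highest at 26.5 percent and lowest at 19.7 percent, and 75C was highest at 18.6 percent and lowest at 11.0 percent. The loci were chosen for a distance between N and 75C, so these shares describe them and test nothing.

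The other libraries were placed by the side of the midpoint between N and 75C on which they fell. Their values took no part in the choice of loci, but the midpoint rests on the N and 75C values that did. Where N alone is extreme, the others fall on the 75C side by that choice, so these shares test nothing. All kept loci were not chosen for a distance. At lower loci H was nearer to 75C at 256 of 414, 61.8 percent, 50CSN at 294, 71.0 percent, and 50CSH at 316, 76.3 percent. Over all kept loci the shares were 44.6 percent for H, 62.6 percent for 50CSN and 64.8 percent for 50CSH. At higher loci they were 48.8 percent for H, 45.8 percent for 50CSN and 43.8 percent for 50CSH. H had the lowest share at lower loci, as it had over all kept loci, and the highest share at higher loci. Its first place at higher loci depended on the processing. With loci above 0 in all 5 libraries H and 50CSN were both at 50.8 percent, and after quantile normalization H was at 51.3 percent and 50CSN at 52.8 percent. All of H, 50CSN and 50CSH were nearer to 75C at 156 lower loci, 37.7 percent, and at 55 higher loci, 18.5 percent, against 22.6 percent of all kept loci. None of them was at 69 higher loci, 23.2 percent, and at 29 lower loci, 7.005 percent, against 13.1 percent. With loci above 0 in all 5 libraries only, H was nearer to 75C at 54.3 percent of 289 lower loci.

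**Figure D3:**
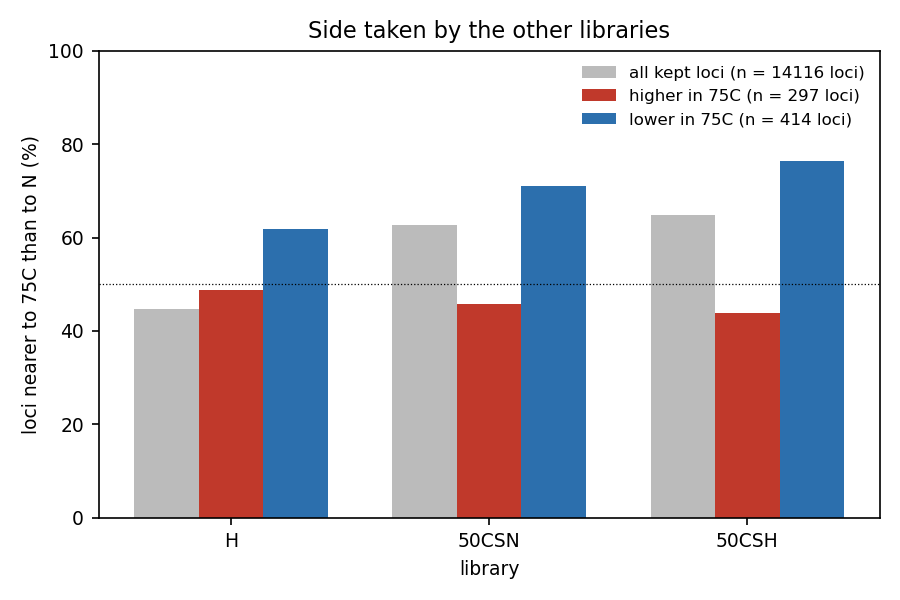
Bars give the percentage of loci, on the y axis, at which H, 50CSN or 50CSH was nearer to 75C than to N on the log2(FPKM + 1) scale, for all 14116 kept loci in grey, the 297 higher loci in red and the 414 lower loci in blue. The blue bars rise from 61.8 percent for H to 76.3 percent for 50CSH, while the red bars lie between 43.8 and 48.8 percent.

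H against each 50 percent cross uses neither N nor 75C and also contrasts a Holstein share, if H is the Holstein parent, with a smaller one. At the 297 higher loci the median difference of H from 50CSN was 0.00 and that of H from 50CSH 0.02 on the log2 scale. H was above 50CSN at 145 of them, 48.8 percent, against 53.6 percent of all kept loci, where the median was 0.03. It was above 50CSH at 153, 51.5 percent, against 51.3 percent. At the 414 lower loci the median difference was 0.02 from 50CSN and 0.17 from 50CSH, and H was above 50CSH at 56.5 percent. Its share above 50CSN there was 51.2 percent. With loci above 0 in all 5 libraries only, H was above 50CSH at 54.5 percent of higher and 65.4 percent of lower loci, against 51.5 percent of all. By the same restriction H was above 50CSN at 50.4 percent of higher and 59.5 percent of lower loci, against 53.9 percent of all. None of these shares was tested.

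Loci apart lay near each other. Of the 239 placed higher loci with a following span on the chromosome, 29, or 12.1 percent, had a next locus in a different span that was also higher, where 1.81 percent of all placed loci were. Of 348 lower loci 28 had a lower neighbour, 8.05 percent against 2.64 percent. Neighbouring loci can be fragments of one transcript, so these shares do not count separate changes. In 2592 windows of 1 Mb, 10 held 4 or more higher loci and 7 held 4 or more lower ones. By chromosome the share apart was 9.19 percent of 762 loci on chromosome 5, with 40 higher and 30 lower. It was 6.67 percent of 465 on chromosome 23 and 5.56 percent of 378 on chromosome 16, and chromosome X had 1 higher and 3 lower of 299. Chromosome 21 had 1 higher and 14 lower of 322.

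**Figure D4:**
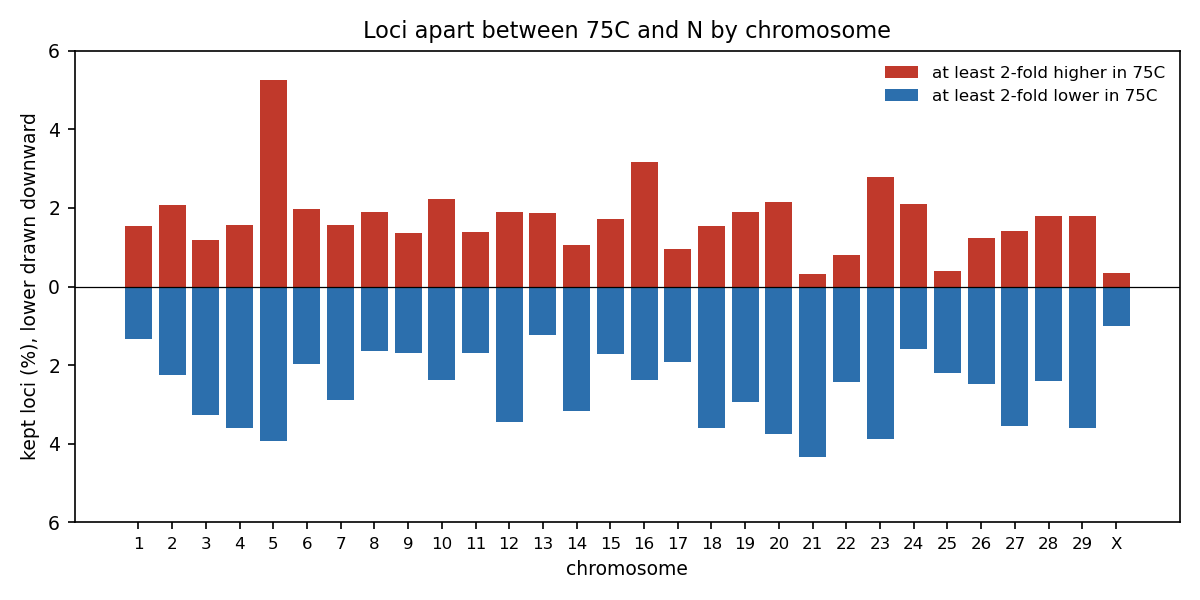
Bars give for each chromosome on the x axis the percentage of its kept loci at least 2-fold higher in 75C than in N (red, upward) and at least 2-fold lower (blue, downward). Chromosome 5 has the tallest red bar, 5.25 percent, and chromosome 21 pairs 0.311 percent higher with 4.35 percent lower.

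Chromosome 5 held the windows with the most higher loci. From 9 to 10 Mb, 7 of 10 kept loci stood higher and none was lower, and the median difference over the 10 was 1.60 on the log2 scale. The 7 lay in 5 spans between 9543849 and 9799562, and their medians were 1.15 FPKM in N, 1.64 in H, 2.45 in 50CSH, 3.04 in 50CSN and 6.08 FPKM in 75C. In the same interval a locus from 9702289 to 9756326 that shares its span with several of them had 16.1 FPKM for N and 17.3 for 75C. The block therefore mixed loci that differed with one that stood level. Just past this window, from 10001849 to 10064425, a further single-transcript locus was at 1.37 FPKM in N, 2.30 in 50CSH, 3.49 in H, 5.03 in 50CSN and 6.91 FPKM in 75C.

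In the window from 109 to 110 Mb 9 of 18 loci were higher and 2 were lower, with a median difference of 0.93, and in the next, from 110 to 111 Mb, 4 of 13 were higher. The 2 lower loci followed 4 that were not apart and came directly before the first higher ones. The first, from 109174688 to 109210153, went from 19.1 FPKM in N to 7.18 in 75C, and the second, from 109214994 to 109222472, from 10.5 to 4.30 FPKM. Next to them a locus from 109237926 to 109260040 was at 4.52 FPKM in N, 3.90 in 50CSH, 6.89 in H, 9.70 in 50CSN and 20.5 FPKM in 75C. The direction turned between these neighbouring spans. At the 9 higher loci 75C was the highest of all 5 libraries, and at 6 of them N was the lowest. Further on, a locus from 110025794 to 110052844 had 4.21 FPKM for N and 4.79 for 50CSH, 15.0 in H, and 20.2 and 20.5 FPKM in 50CSN and 75C.

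Chromosome 16 held a further pair of windows with several higher loci. From 0 to 1 Mb, 4 of 13 loci stood higher, in 2 adjoining spans from 865186 to 910589, and from 2 to 3 Mb, 4 of 14 stood higher and 1 lower. Most were weak, and in each window 1 locus was still higher with a pseudocount of 5 or with a mean of at least 5 FPKM required. The locus from 2806949 to 2835493 with 4 transcripts was at 4.22 FPKM in N, 8.22 in 50CSH, 13.3 in H, 17.1 in 50CSN and 22.9 FPKM in 75C. Of the 8 higher loci of these windows 75C was the highest library at all 8. Over the 5 windows of chromosomes 5 and 16 named here, 50CSH was the lowest of H, 50CSN and 50CSH at 4 of 7, 4 of 9, 4 of 4, 3 of 4 and 3 of 4 higher loci. In the chromosome 19 window from 44 to 45 Mb, it was lowest at 2 of 5 higher loci. Other windows with 4 or more higher loci were not tallied. Some of the tallied loci share a span, so they are not separate members. Over all kept loci 50CSH was lowest at 28.7 percent and over all higher loci at 33.3 percent.

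**Figure D5:**
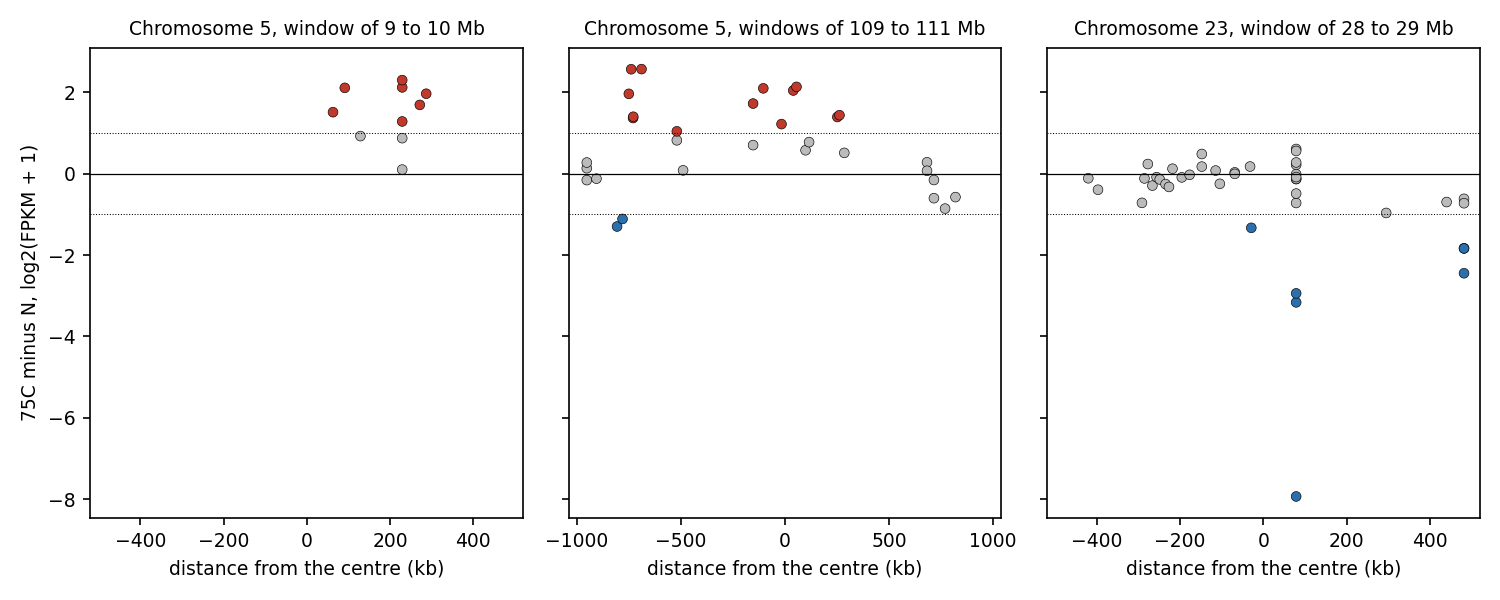
Points are kept loci of the chromosome 5 and chromosome 23 windows, placed by their distance in kb from the centre of the window or windows on the x axis and by their difference of 75C minus N in log2(FPKM + 1) on the y axis, with dotted lines at a 2-fold difference. Red points, 7 on the left and 13 in the middle, are at least 2-fold higher in 75C. Blue points, 2 in the middle and 7 on the right, are at least 2-fold lower.

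No window had more lower loci than that from 28 to 29 Mb of chromosome 23, 7 of 41, with none higher and a median difference of -0.14 over the 41. The window directly before it, from 27 to 28 Mb, went the other way, with 4 higher and 1 lower of 56 loci. The cattle MHC, which encodes antigen-presenting molecules, is on chromosome 23, and its membership could not be read for these loci. The 7 lay in 3 spans and all had a single transcript, 4 were listed at 0 in 75C, and N was the highest library at 6. In the span from 28965906 to 28998467 the 3 lower loci were at 4.45, 4.17 and 2.57 FPKM in N and at most 0.446 FPKM in any other library. None of the 7 was above 0 in all 5 libraries. The window from 44 to 45 Mb of chromosome 19 had 5 higher loci and 1 lower among 27. The locus from 44675645 to 44743660 with 2 transcripts was at 14.7 FPKM in 75C and 12.7 FPKM in H, against 1.82 in N, 0.330 in 50CSN and 0.123 FPKM in 50CSH. Of the other 4, 3 had a deposited 0 for N and 2.50 FPKM for 75C, and H was at 2.25 FPKM in 2 of the 3 and at 4.50 FPKM in the remaining one, levels that repeat between loci.

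A set of loci was divided sharply between libraries. The largest step between neighbouring values of FPKM + 1, at least 4-fold, separated 75C from N at 92 of the 711 loci, 31 higher and 61 lower. Most of these rest on a deposited 0, and with N and 75C both above 0 there were 12, 7 higher and 5 lower. N stood alone above the 4 other libraries at 32 of the 61, and 75C stood alone above at 13 of the 31, which became 3 and 2 with N and 75C both above 0. N and 50CSN stood together against H, 75C and 50CSH at 14 loci, of which 5 were higher in 75C and 9 lower, and 3 of the 14 were above 0 in both N and 75C. On one unplaced sequence there were 4 neighbouring single-transcript loci, 3 of them among the 14, that were listed at 0 in N and in 50CSN. The first, from 28275 to 28878, was at 124 FPKM in 75C, 28.5 in H and 29.7 FPKM in 50CSH. The second, from 37404 to 37584, was at 106 FPKM in 75C, 23.4 in H and 30.7 FPKM in 50CSH, and the last, from 42093 to 42558, at 4.35, 1.22 and 2.72 FPKM. The 4 loci had the same order of libraries, and whether they belong to 1 transcript cannot be read from the table.

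In the opposite direction, an unplaced locus from 128390 to 411442 of its sequence had 17.6 FPKM for N, 13.1 for 50CSN, 0.0152 for H, 0.0164 for 75C and a deposited 0 for 50CSH. At chr2:97468246-97470058, N was at 133 FPKM and 50CSN at 179.9 FPKM, 75C at 12.8, H at 10.5 and 50CSH at 0.819 FPKM. At chr6:71010595-71039321, N had 79.97 FPKM, 50CSN had 59.8, and the 3 other libraries were listed at 0. All 3 are among the 14 loci defined by 50CSN standing with N and apart from 50CSH, so that grouping was fixed by the choice. The reverse division, N with 50CSH against H, 75C and 50CSN, was found at 4 lower loci and 0 higher loci. None of the 4 had N and 75C both above 0.

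The highest levels against a listed 0 were found in 1 library only at 8 of 12 loci, the 6 highest on either side. In N a locus at chr5:48015303-48065411 was at 3865 FPKM, one at chr3:108093498-108096089 at 2509 FPKM and one at chr8:116505976-116543154 at 1755 FPKM, and all 3 were listed at 0 in the other 4 libraries. The same 3865 FPKM is also deposited for N at a single-transcript locus of chromosome 18. Of the 6 highest listed at 0 in 75C, 5 had all of H, 50CSN and 50CSH at 0 as well. In 75C a locus at chr19:39265919-39591013 was at 3189 FPKM, one at chr8:81409228-81422924 at 985 FPKM and one at chr23:16989973-17004118 at 368 FPKM, each listed at 0 elsewhere. The other 3 of the 6 listed at 0 in N were above 0 in all remaining libraries. One of them, at chr23:27808462-27884733, had 3261 FPKM in H, 1459 in 50CSH, 715 in 75C and 690.2 in 50CSN. All 12 loci had a single transcript. Large values at short loci can stand for few fragments. Where single-transcript loci under 150 nt shared an exact span length, the values of a library were whole multiples of the smallest, 1 included and to within 0.001, in 8 of 18 cases in 75C and 4 of 22 in N. In N the values 172.8 and 691 FPKM at 116 nt were 1 to 4, in whole steps. The higher value belongs to the locus at chr10:12064834-12064949, which was listed at 0 in 75C.

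The most abundant loci were close in the 2 libraries. The mitochondrial locus with 17 transcripts, from a genome known to encode subunits of the respiratory chain, summed to 36230 FPKM in N and 37332 FPKM in 75C, and mitochondrial transcripts made 6.41 percent of the summed FPKM of N and 5.70 percent of that of 75C. An exception among the 6 most abundant was a locus of 113 nt at chr3:104213405-104213517, at 9763 FPKM in N and 26363 FPKM in 75C. Loci in regions dense with annotated loci were slightly lower in 75C. In 5 groups ordered by the number of annotated loci in the 1 Mb centred on a locus, the median difference was 0.03 in the sparsest group. That group had a median of 6 such loci, and the densest, with a median of 42, was at -0.06. The share at least 2-fold lower was 2.32 percent in the sparsest, 3.26 percent in the third and 2.81 percent in the densest group.

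Single transcripts differed more than loci did. Of 27206 transcripts that averaged 1 FPKM or more, 1324 were at least 2-fold higher in 75C, 4.87 percent, and 1562 were lower, 5.74 percent. Of these 2886, 2116 belonged to loci that were not apart in their sum, 73.3 percent, and 315 loci had transcripts apart in both directions. At 7394 loci with several transcripts and a level sum, the leading transcript differed between N and 75C at 1197, 16.2 percent, and at 10.6 percent of the 4491 with a mean of at least 10 FPKM. For pairs without N or 75C the same share was 18.6 percent for H and 50CSN, 18.4 percent for H and 50CSH and 15.7 percent for 50CSN and 50CSH. The share for 75C and N thus lay within the range of the other pairs. Transcript levels within a locus are estimates of a model, and its part in these shares was not tested.

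The largest changes of share at a level sum included several that grouped the libraries. At chr3:65228599-65229815, the sum came to 18.3 FPKM for N and 20.8 for 75C. One of its 2 transcripts made 99.97 percent of the sum in N and 99.98 percent in 50CSN, and 0.045 percent in 75C, 0.311 percent in H and 0.023 percent in 50CSH. By these estimates N and 50CSN fell to one model of the locus and the remaining libraries to the other. Groupings differed between loci. At chr5:113756184-113769991, with a sum of 1.17 FPKM in both N and 75C, 50CSN stood with 75C instead. There a transcript made 99.98 percent in 75C and 99.8 percent in 50CSN, and at most 0.259 percent in N, H and 50CSH. On chromosome X, at the level neighbour from 60267755 to 60275432, a transcript made 99.9 percent of the sum in N, 96.5 percent in 50CSN, 90.5 percent in 50CSH, 44.5 percent in H and 0.193 percent in 75C. This locus lies directly before the chromosome X locus with the largest difference upward. Of the 8 loci with the largest change of share, 5 had a mean under 2 FPKM.

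The authors' deposited table calls 69 of the 37725 transcripts it tested between 75C and N, 0.183 percent, 27 of them higher in 75C, 0.0716 percent, and 42 lower. All 69 stand at the smallest p-value of the authors' deposited table, 5e-05, and at a q-value of 0.043, and no other tested transcript has that p-value. Of the 69 calls 30 were listed at 0 in one library, 9 in N and 21 in 75C, with a median of 4.27 FPKM in the other. A further 11 were mitochondrial, and these were the only calls under 2-fold among those above 0 in both libraries, with log2 ratios from -0.67 to 0.30. One of them had 9581 FPKM for N and 9263 for 75C. The calls touched 44 of the 711 loci at least 2-fold apart.

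The remaining 28 calls of the authors' deposited table were above 0 in both libraries, 13 higher and 15 lower. At chr7:15788602-15803571, a transcript without an Ensembl ID was at 3.73 FPKM in N, 18.6 in 50CSH, 21.0 in 50CSN, 27.3 in 75C and 78.5 FPKM in H. A transcript at chr15:47800342-47827396 was at 189 FPKM in N, 262 in 50CSN, 354 in 50CSH, 451 in H and 767 FPKM in 75C, and one at chr9:12614262-12617657 at 178 FPKM in N and 532 FPKM in 75C. Of the 13 higher calls 12 had H strictly between N and 75C, as did 212 of the 297 higher loci, 71.4 percent, and 40.8 percent of all kept loci with 75C above N. The order N, H, 75C and then both 50 percent crosses held at 11.6 percent of the 414 lower loci. Of kept loci with 75C below N it held at 16.2 percent. Among the 15 lower calls, which are transcripts and not sums over a locus, 9 had it. At chr11:2564216-2571672, one of these had 133 FPKM for N, 54.3 for H and 35.5 for 75C, against 9.63 and 8.42 FPKM for 50CSN and 50CSH. Another, at chr18:38133163-38139406, was at 113 FPKM in N and 65.1 in H, 43.5 in 75C, and 30.8 and 38.4 FPKM in the 50 percent crosses. Unlike these, an unplaced transcript from 9375 to 10205 of its sequence was at 53.7 FPKM in 75C and between 201 and 313 FPKM in the other 4 libraries.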

How the data were processed

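Total RNA of white blood cells was poly(A)-selected, fragmented, reverse transcribed from random primers and read as pairs on a HiSeq, per the labels' protocols, which name no strand-marking step. The submitters' processing notes name TopHat2 2.0.9 and Cufflinks 2.2.1.0. The sources used here name no build, annotation or settings. The authors deposited FPKM per transcript, an infinite or finite log2 fold change, a test score, a p-value and its q-value in each pair of libraries, per the file headers. Each library had identical FPKM in all 4 comparisons it enters. Besides FPKM, the test status, the significance mark, p and q of the deposited table were taken over. The direction of a call was read from FPKM, and the test score was not used.

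FPKM were summed over the transcripts of a locus, loci averaging 1 FPKM or more over N and 75C were kept, and differences were taken as log2(FPKM + 1), which understates changes of low loci. Counting was checked on simulated data. The simulation raised only loci well above the filter and held no 0, so it did not cover weak loci, loci listed at 0 or lowered loci. With 1 library a side no test was made. None of the 31460 Ensembl IDs matched the reference gene table, so gene lists and leukocyte markers were not read. The rule for named loci took the 12 highest and 12 lowest with an Ensembl ID and above 0 in both libraries, the 6 highest and lowest listed at 0, loci of the authors' calls, the 6 most abundant and the 8 largest changes of transcript share, and the text names part of them. Windows, neighbours, library sides and sharp divisions were described after the values were seen. The members and lists were chosen with earlier results of these data known. Software was matplotlib 3.10.9 for plots, with scipy 1.17.1, numpy 2.4.6 and pandas 2.3.3 under Python 3.11.15.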

Additional observations from a re-analysis of the deposited data

How the results depend on the processing

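Counts of loci at least 2-fold apart depended on how low values entered. They were 465 higher and 694 lower with a pseudocount of 0.1, 114 and 142 with a pseudocount of 5, and 161 and 202 with a mean of at least 5 FPKM. With an Ensembl ID required they were 153 and 241, and per transcript 1324 and 1562. Without a filter, with loci above 0 in both or all 5 libraries, and under both other scalings, both counts stayed within 1.5 times of 297 and 414. The median difference lay between -0.02 and 0.02 under all 10 alternatives. Both other scalings bring the libraries to a common level, so a median near 0 under them is no check. The share of lower loci with H nearer 75C was 55.5 percent with a pseudocount of 0.1, 54.0 percent at 5 FPKM, 53.1 percent with an Ensembl ID, 54.3 percent above 0 in all 5 libraries and 50 percent per transcript. For 50CSN it was 66.3 percent after quantile normalization and 59.2 percent per transcript, and for 50CSH 71.8 percent with a pseudocount of 5 and 62.4 percent per transcript. At higher loci 50CSN was nearer at 52.8 percent, H at 51.3 percent and 50CSH at 49.7 percent after quantile normalization, and 50CSH at 50.9 percent per transcript. These shares were recomputed by choices made after the data were seen, and the cause was not tested. The 24 named loci kept their direction in all 212 values, and 211 were still at least 2-fold apart. The exception, on chromosome 5, was at 0.90 with a pseudocount of 5. Filters leave these values as they are and a pseudocount cannot turn a direction, so only the other scalings could have reversed one. With a pseudocount of 5 the chromosome 5 window from 9 to 10 Mb held 3 higher loci and that from 109 to 110 Mb also 3, and each chromosome 16 window held 1, as it did at 5 FPKM and with an Ensembl ID required. The 7 lower loci of chromosome 23 were 3 above 0 in both libraries and 0 above 0 in all 5. No paired analysis was possible because each population has 1 library. Leaving out a replicate was not possible for the same reason, and FPKM without read totals allow no counting interval.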
